A study of Mus musculus with 8 samples.

Results

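Transcript levels of 10 genes of mature neutrophils and of granulocyte colony-stimulating factor (G-CSF) were followed in mouse mammary tumors. The genes were S100a8, S100a9, Csf3, Csf3r, Csf2, Ly6g, Retnlg, Trem1, Padi4 and Cebpe, listed by name and found by matching gene identifiers to symbols. All 10 were among the 25006 identifiers counted in each library, and all 10 passed the filter on low counts that kept 15310 genes. The tumors were grown from 4T1, a carcinoma line of Balb/c origin used to model triple-negative breast tumors, after injection into the fat pad, and were taken within 20 days. The hosts were Balb/c mice, which have an intact immune system, or NSG mice, which lack mature T, B and NK cells but still make myeloid cells, neutrophils among them. Balb/c and NSG mice are also different strains. Strain and immune status therefore cannot be told apart in any comparison of hosts. The wild-type lines were parental 4T1 and 4T1 stably expressing vCas9, and the CD95 knockouts were the CRISPR/Cas9 clones 54 and 69. Each of the 4 lines was grown in both hosts, which gave 2 libraries for each of 4 combinations of host and CD95 status. The 2 libraries of a group are therefore different lines, the knockouts are clones while no such origin is given for parental and vCas9 cells, so that clonality and CD95 status cannot be told apart, and whether a library held 1 tumor or several is not stated.

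G-CSF, the product of Csf3, drives the production of neutrophils in the bone marrow and their release into the blood through its receptor, encoded by Csf3r. Granulocyte-macrophage colony-stimulating factor, the product of Csf2, acts on a wider range of myeloid cells. 4T1 tumors are known for secreting G-CSF and for the accumulation of neutrophils in tumor-bearing mice. Mature neutrophils hold large amounts of the calcium-binding proteins S100A8 and S100A9, carry LY6G and TREM1 at their surface, secrete resistin-like gamma (Retnlg), and use the histone-citrullinating enzyme PADI4 to form extracellular chromatin traps. C/EBP epsilon, encoded by Cebpe, is a transcription factor of the late stages of granulocyte maturation.

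Promoter sequences are shown for the 4 genes that followed each other most closely over the libraries, S100a8, S100a9, Ly6g and Trem1, with letters of the C/EBP family motif in capitals. They are RefSeq sequences of build GRCm38.p6, up to 250 bases before the RefSeq start, read along the strand of the gene and ended before any base that the GENCODE annotation places inside the transcript. The windows are chr3:90668821-90668977 (plus strand) for S100a8, chr3:90695722-90695971 (minus strand) for S100a9, chr15:75155011-75155239 (plus strand) for Ly6g and chr17:48232489-48232738 (plus strand) for Trem1.
S100a8: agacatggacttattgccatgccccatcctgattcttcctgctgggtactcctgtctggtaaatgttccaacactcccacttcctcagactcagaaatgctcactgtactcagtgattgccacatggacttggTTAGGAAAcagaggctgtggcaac
S100a9: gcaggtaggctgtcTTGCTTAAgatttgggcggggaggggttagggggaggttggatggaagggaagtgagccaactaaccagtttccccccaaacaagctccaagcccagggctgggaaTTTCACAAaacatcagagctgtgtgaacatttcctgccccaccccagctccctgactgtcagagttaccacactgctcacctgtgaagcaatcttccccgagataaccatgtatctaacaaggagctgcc
Ly6g: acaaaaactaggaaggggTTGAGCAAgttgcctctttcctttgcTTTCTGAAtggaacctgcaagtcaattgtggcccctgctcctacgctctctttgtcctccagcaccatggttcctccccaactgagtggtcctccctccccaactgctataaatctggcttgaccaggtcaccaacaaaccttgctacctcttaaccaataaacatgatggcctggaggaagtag
Trem1: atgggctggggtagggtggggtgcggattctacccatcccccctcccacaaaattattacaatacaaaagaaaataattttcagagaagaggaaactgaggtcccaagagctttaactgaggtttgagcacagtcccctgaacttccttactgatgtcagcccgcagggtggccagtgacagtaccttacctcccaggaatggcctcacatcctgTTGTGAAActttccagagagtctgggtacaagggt

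The motif searched was TTNNGNAA on both strands. Of the 10 genes, 8 had a promoter entry (Csf3 and Cebpe had none), and 6 of the 8 held at least 1 match in the 250 bases before a start, while 36.8% of 32851 mouse promoter windows of that length did. The 6 were S100a8, S100a9, Ly6g, Trem1, Csf2 and Retnlg. In S100a8 the match lay at bases -117 to -110 from the RefSeq start, and in Trem1 at bases -35 to -28. The shorter PU.1 letters GAGGAA were found in 4 of the 8 (23.3% of all windows), the NF-kB letters GGGANNNCC in 1 (15.8%) and TATAAA in 3 (12.4%), and no C/EBP match overlapped a match of another motif. These are matches of letters, not evidence of binding.

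Total counts per library lay between 8.68 M and 19.7 M reads, a 2.26-fold span, and levels are given in CPM, counts scaled to a common library total (TMM). The epithelial genes Epcam, Krt8 and Krt18 were read in all 8 libraries, and 7 of 7 T cell genes rose with the Balb/c host in each genotype, as the host labels imply. Fas, which encodes the targeted receptor CD95, was read in the knockout libraries at 12.9 to 33.7 CPM and in the wild-type libraries at 22.6 to 51.6 CPM. Its difference between knockout and wild type did not pass the threshold in NSG (log2 fold change -0.42, edgeR adjusted p = 0.628) or in Balb/c (-0.70, adjusted p = 0.225), so that knockout status rests on the labels. In bulk tumor RNA, fewer cells of a type and less RNA per cell cannot be told apart. P-values rest on the spread between the 2 libraries of a group, estimated jointly over the 4 groups. Variation of line, tumor and library is mixed in that spread. An exact permutation test of 2 libraries against 2 cannot go below 0.333.

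Of the ligands, Csf3 (ENSMUSG00000038067, GRCm38 chromosome 11, 98701263 to 98703629, protein-coding) was highest in NSG wild-type tumors and lowest in Balb/c knockout tumors, a 42.9-fold span between libraries. It stood at 177 CPM in the parental and 106 CPM in the vCas9 library of the NSG wild type. In NSG knockout it stood at 42.5 CPM in clone 54 and 15.9 CPM in clone 69. Both Balb/c wild-type libraries lay near each other, at 32.9 CPM (parental) and 30.5 CPM (vCas9). In Balb/c knockout it was 4.13 CPM in clone 54 and 8.32 CPM in clone 69. The wild-type and knockout libraries did not overlap in either host, nor did the hosts within a genotype.

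Csf3 fell with the Balb/c host in wild-type tumors, with a log2 fold change of -2.16 ± 0.49 (SE) and an edgeR adjusted p of 0.016. It did not pass without the NSG parental (-1.75), the Balb/c parental (-2.22) or the Balb/c vCas9 library (-2.03), nor with the cell line as a block (-2.11), a fit that rests on the clone labels. It fell with the Balb/c host in knockout tumors too, by -2.24 ± 0.52 (adjusted p = 0.0144), and that call was lost without clone 54 in NSG (-1.37), without clone 54 in Balb/c (-1.83), with the line as a block (-2.15) and in a fit of only the 4 libraries compared (-2.23). Between knockout and wild type the log2 difference of Csf3 was -2.28 ± 0.49 in NSG (adjusted p = 0.193) and -2.36 ± 0.52 in Balb/c (adjusted p = 0.0569). Neither passed in this fit, and both passed in DESeq2 (-2.29 and -2.45) and in edgeR without a filter on low counts (-2.27 and -2.435). That in Balb/c also passed without clone 69 there (-2.93). The knockout difference in Balb/c minus that in NSG was -0.08 ± 0.68 (adjusted p = 0.955), and its sign turned without NSG vCas9 (0.25), clone 54 in NSG (0.80) or clone 54 in Balb/c (0.23).

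Csf2 (ENSMUSG00000018916, chromosome 11, 54247271 to 54249667, minus strand) shared the order of the genotypes with Csf3 at a lower level. In NSG it was 19.8 CPM (parental) and 35.3 CPM (vCas9) in wild type, against 11.4 CPM (clone 54) and 6.07 CPM (clone 69) in knockout. In Balb/c it was 17.5 CPM (parental) and 14.1 CPM (vCas9) in wild type, against 2.38 CPM (clone 54) and 2.55 CPM (clone 69) in knockout. All 4 knockout libraries lay below all 4 wild-type libraries, and the clones in Balb/c were nearly equal. Csf2 fell with the Balb/c host in knockout tumors (log2 fold change -1.82 ± 0.40, edgeR adjusted p = 0.0124), a call lost without clone 54 in NSG (-1.30). In wild-type tumors the host difference was -0.80 ± 0.36 (adjusted p = 0.122), with -1.17 without the parental and -0.34 without the vCas9 library of NSG. The knockout difference was -1.65 ± 0.38 in NSG (adjusted p = 0.202) and -2.67 ± 0.40 in Balb/c (adjusted p = 0.0564). The former passed in DESeq2 (-1.67) and without a filter on low counts (-1.65). The latter passed with RLE in place of TMM scaling (-2.77), in DESeq2 (-2.77), without a filter on low counts (-2.74) and without clone 69 in Balb/c (-2.71). The difference between these knockout effects was -1.02 ± 0.54 (adjusted p = 0.295), with -1.48 without NSG vCas9 and -0.48 without clone 54 in NSG. The gene overlaps the antisense gene Gm12223 on the other strand, and without a stated strand setting their reads cannot be told apart.

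**Figure D1:**
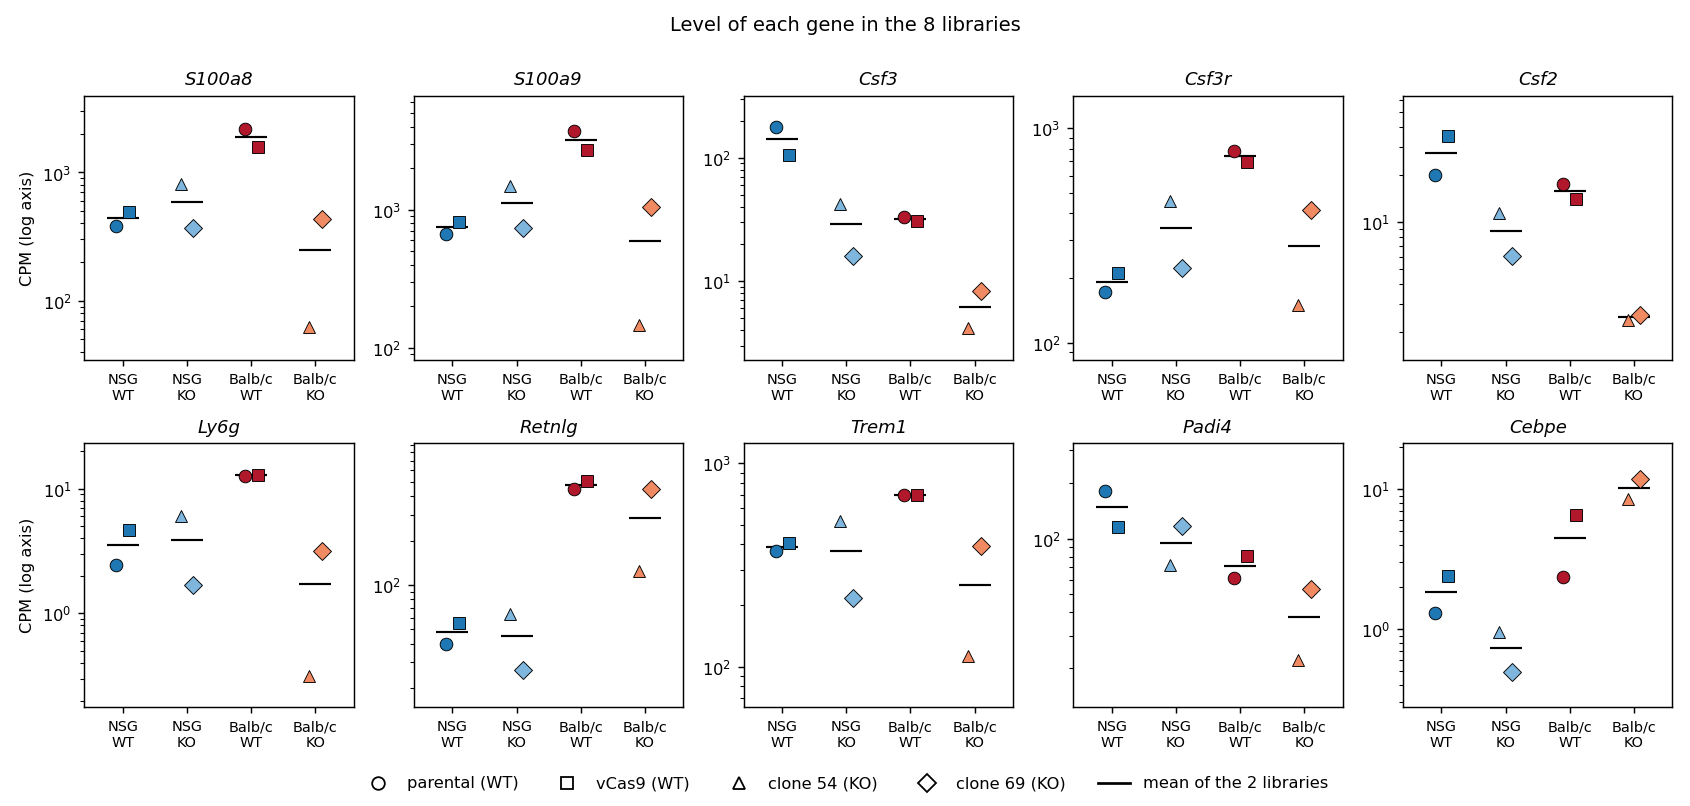
Level of each of the 10 genes in CPM (log axis, scaled per gene) in the 8 libraries, with 2 libraries per group, the shape of a point giving the line and the bar the mean. S100a8, S100a9, Csf3r, Ly6g and Trem1 were highest in both Balb/c wild-type libraries and lowest in clone 54 grown in Balb/c, Csf3 was highest in NSG wild type, and Cebpe was highest in Balb/c knockout.

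The receptor gene Csf3r (ENSMUSG00000028859, chromosome 4, 126024550 to 126044440) showed another order than its ligand. In NSG it was 172 CPM (parental) and 210.3 CPM (vCas9) in wild type, and 458 CPM (clone 54) and 223 CPM (clone 69) in knockout. In Balb/c it was 784 CPM (parental) and 696 CPM (vCas9) in wild type, and 149 CPM (clone 54) and 415 CPM (clone 69) in knockout. Knockout lay above wild type without overlap in NSG and below wild type without overlap in Balb/c. Csf3r rose with the Balb/c host in wild-type tumors (log2 fold change 1.95 ± 0.50, edgeR adjusted p = 0.0233). It did not pass when any 1 of the 4 libraries compared was left out (1.81 without NSG parental, 2.09 without NSG vCas9, 1.86 without Balb/c parental, 2.10 without Balb/c vCas9) or with the line as a block (1.96). In knockout tumors the host difference was -0.27 ± 0.48 (adjusted p = 0.704), and it turned positive without clone 54 in NSG (0.33) or in Balb/c (0.26). The knockout difference was 0.83 ± 0.49 in NSG (adjusted p = 0.467) and -1.39 ± 0.49 in Balb/c (adjusted p = 0.107). The former was 0.22 without clone 54 and 1.26 without clone 69 in NSG, and the latter passed in DESeq2 (-1.48), without a filter on low counts (-1.47) and without clone 69 (-2.30), and was -0.94 without clone 54 in Balb/c. Their difference between hosts was -2.22 ± 0.69 (adjusted p = 0.134) in edgeR and passed in DESeq2 (-2.30), without the filter (-2.30) and without clone 69 in Balb/c (-3.13), with -1.61 without clone 54 in NSG.

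The ratio of Csf3 to Csf3r counts within a library, which does not depend on scaling, was 1.03 and 0.504 in NSG wild type (parental, vCas9) and 0.0928 and 0.0712 in NSG knockout (clones 54, 69). It was 0.0419 and 0.0438 in Balb/c wild type and 0.0276 and 0.0200 in Balb/c knockout. Ligand and receptor transcripts were thus closest to each other in count in NSG wild-type tumors, and the ratio was lower in every other library. Per kilobase of exon the ratio spanned 2.63 to 0.0512.

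Genes of the G-CSF and GM-CSF signaling list (receptor subunits, kinases, STAT factors and SOCS inhibitors) were mostly higher in Balb/c hosts. Of the 17 tested, 15 rose and none fell in wild-type tumors (median log2 fold change 1.28), and 12 rose and none fell in knockout tumors (median 1.23), while all genes had medians of -0.079 and 0.0222, with 31.5% and 31.1% passing in either direction. Csf2rb, the signal-transducing subunit of the GM-CSF receptor, rose with log2 fold changes of 1.53 in wild type and 1.61 in knockout, and the ligand-binding subunit Csf2ra with 1.29 and 1.52. Cish, a STAT5-induced inhibitor of cytokine signaling, had the largest change of the list in wild-type tumors (2.37), and Socs1, another inhibitor of that family, in knockout tumors (2.69). Stat3, the main factor downstream of the G-CSF receptor and named here after its values were seen, rose by 1.24 and 0.85. Between knockout and wild type no gene of the list passed in edgeR in NSG (5 had an unadjusted p under 0.05; DESeq2 and limma-voom called 0) or in Balb/c (3 unadjusted, 2 in DESeq2, 0 in limma-voom). Of all genes 14% and 30.9% had an unadjusted p under 0.05 in NSG and Balb/c, and DESeq2 called 2.41% and 15.0%, so that the Balb/c counts of the list lay below these shares. As Csf1r, also a macrophage marker, is on the list, and several of its genes are used by most leukocytes, the list is not particular to neutrophils.

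Among 13 tested inducers of Csf3 and Csf2, such as interleukins and NF-kB factors, 4 rose with the Balb/c host in wild-type tumors, and in knockout tumors 2 rose and 2 fell, shares near the 31.5% and 31.1% of all genes tested that passed. Cebpb, a transcription factor of emergency granulopoiesis, rose by 1.17 and 0.63, Tlr4 rose by 1.38 in wild type, and Il23a, a cytokine subunit upstream of interleukin 17, fell by 3.33 in knockout. The cytokine Il1b, at 752 to 4231 CPM over the libraries, passed in neither host comparison. The knockout differences of these 13 passed for 0 in edgeR in NSG (4 at an unadjusted p under 0.05, 3 in DESeq2, 0 in limma-voom) and 0 in Balb/c (4, 4 and 0 by the same measures). Of all genes 14% had an unadjusted p under 0.05 in NSG and 30.9% in Balb/c, and DESeq2 called 2.41% and 15.0%. In Balb/c 11 of 13 had negative values, with a median of -0.71, and Il6 stood at -1.54 in NSG and -1.18 in Balb/c. Il17a, Il17f and Il22 were under the filter.

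S100a8 (ENSMUSG00000056054, chromosome 3, 90668978 to 90670035) and S100a9 (ENSMUSG00000056071, chromosome 3, 90692632 to 90695721), which encode the 2 subunits of calprotectin, had nearly the same pattern. S100a8 was 381 CPM (parental) and 496 CPM (vCas9) in NSG wild type, and 819 CPM (clone 54) and 367 CPM (clone 69) in NSG knockout. It was 2200.4 CPM (parental) and 1589 CPM (vCas9) in Balb/c wild type, and 62.1 CPM (clone 54) and 437 CPM (clone 69) in Balb/c knockout. In Balb/c the knockout libraries lay below both wild-type libraries, and in NSG the groups overlapped. S100a9 was 669 CPM and 820.2 CPM in NSG wild type (parental, vCas9), and 1496 CPM and 735 CPM in NSG knockout (clones 54, 69). In Balb/c it was 3713 CPM and 2722 CPM in wild type, and 147 CPM and 1037 CPM in knockout. Per kilobase of exon S100a9 exceeded S100a8 in every group, with means of 6164 against 2730.3 CPM per kb in Balb/c wild type.

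In Balb/c hosts the knockout difference of S100a8 was -2.93 ± 0.82 on the log2 scale (7.59-fold lower by the means of CPM, edgeR adjusted p = 0.071) and that of S100a9 was -2.44 ± 0.79 (adjusted p = 0.0926). Neither passed in this fit or limma-voom, and both passed in DESeq2 (-3.02 and -2.54) and in edgeR without a filter on low counts (-3.01 and -2.53). Against the wild-type mean of 1895 CPM, S100a8 was 30.5-fold lower in clone 54 and 4.33-fold lower in clone 69. Without clone 69 the differences passed at -4.92 and -4.45, and without clone 54 they did not pass (-2.22 and -1.74). In NSG the differences were 0.44 ± 0.76 (adjusted p = 0.818) and 0.58 ± 0.75 (adjusted p = 0.751), and they were negative without clone 54 (-0.26 and -0.02). The knockout difference in Balb/c minus that in NSG was -3.36 ± 1.10 for S100a8 (adjusted p = 0.146) and -3.03 ± 1.08 for S100a9 (adjusted p = 0.166), passing without clone 69 in Balb/c (-5.36 and -5.03) and not without clone 54 there (-2.67 and -2.33). That of S100a8 also passed without the filter (-3.44), while that of S100a9 did not (-3.11). Host differences in wild type were 2.11 ± 0.79 (adjusted p = 0.074) and 2.11 ± 0.78 (adjusted p = 0.0719). They passed in DESeq2 (2.19 for both), without the filter (2.185 for both), in a fit of the 4 libraries compared (2.18 for both), and without clone 54 (2.20 for both) or clone 69 in Balb/c (2.11 for S100a8 and 2.10 for S100a9), which enter this comparison only through scaling and the shared spread. Host differences in knockout were -1.25 ± 0.77 (adjusted p = 0.252) and -0.91 ± 0.76 (adjusted p = 0.391), passing without clone 69 in Balb/c (-3.25 and -2.92) and not without clone 54 there (-0.47 and -0.13).

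Among 11 other tested genes of the S100 family, 2 fell and none rose with the Balb/c host in wild type, and 1 fell in knockout, beside 31.5% and 31.1% of all genes that passed. S100a4, a family member of motile and mesenchymal cells, fell by 1.62 in wild type, and S100a16 fell by 1.60 in knockout. Of 6 genes for reported receptors or binding partners of S100a8 and S100a9, 5 passed in the wild-type host comparison (31.5% of all genes) and 1 in the knockout host comparison (31.1%). Cd33 (1.95), Tlr4 (1.38) and Myd88 (0.66) rose, while the scavenger receptor Cd36 (-1.56) and Bsg (-0.77) fell. Cd36 was also the 1 gene of the 6 that passed between knockout and wild type in Balb/c, beside 0.176% of all genes. It rose there by 2.31 (edgeR adjusted p = 0.045), opposite in sign to S100a8 and S100a9. The call was lost in a fit of only the libraries compared, where 0 of 14793 genes passed. Keratinocytes make S100a8 too. The summed level of the 8 keratinocyte and squamous genes was 15.8 and 49.2 CPM in Balb/c wild type, against 7.46 CPM (clone 54) and 68.0 CPM (clone 69) in Balb/c knockout. Lor was at 0 counts in all 4 Balb/c libraries.

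Ly6g (ENSMUSG00000022582, chromosome 15, 75155240 to 75159126), whose product defines mouse neutrophils in flow cytometry, was a low-count gene. It was 2.42 CPM (parental) and 4.64 CPM (vCas9) in NSG wild type, and 5.99 CPM (clone 54) and 1.69 CPM (clone 69) in NSG knockout. In Balb/c it was 12.7 CPM (parental) and 12.8 CPM (vCas9) in wild type, and 0.317 CPM (clone 54) and 3.14 CPM (clone 69) in knockout. The value in clone 54 rests on 6 counts, and the highest count in any library was 185. Both Balb/c wild-type libraries were above all others. The knockout difference in Balb/c was -2.93 ± 0.91 (edgeR adjusted p = 0.0852), passing in DESeq2 (-3.00), without a filter on low counts (-3.02) and without clone 69 (-5.28) but not without clone 54 (-2.13). In NSG it was 0.12 ± 0.88 (adjusted p = 0.964), negative without NSG parental (-0.28) or clone 54 (-1.06) and in limma-voom (-0.06). The host difference was 1.86 ± 0.86 in wild type (adjusted p = 0.129), passing without either Balb/c knockout library (1.95 without clone 54, 1.86 without clone 69), without a filter on low counts (1.93) and in a fit of the 4 libraries compared (1.93). In knockout it was -1.20 ± 0.92 (adjusted p = 0.354), passing without clone 69 in Balb/c (-3.54) and at -0.02 without clone 54 in NSG or -0.31 without it in Balb/c. The difference of the knockout effects was -3.06 ± 1.25 (adjusted p = 0.204). It passed without clone 69 in Balb/c (-5.40), and was -1.87 without clone 54 in NSG. Similar Ly6 genes can share reads with Ly6g, whose values are uncertain to that extent. Among 8 tested genes of that family, Ly6c2 and Ly6i rose with the Balb/c host in wild type (1.57 and 2.84). In knockout Ly6i rose (2.39) while Ly6a and Ly6c1 fell (-1.83 and -1.48). These shares were near the 31.5% and 31.1% of all genes that passed in wild type and knockout.

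Trem1 (ENSMUSG00000042265, chromosome 17, 48232768 to 48246924), an activating receptor that amplifies inflammatory signals through the adaptor Tyrobp, spanned 6.15-fold. It was 369.6 CPM (parental) and 407 CPM (vCas9) in NSG wild type, and 520.04 CPM (clone 54) and 218 CPM (clone 69) in NSG knockout. It was 697 CPM (parental) and 696 CPM (vCas9) in Balb/c wild type, and 113 CPM (clone 54) and 393 CPM (clone 69) in Balb/c knockout. The knockout clones lay on both sides of wild type in NSG and below it in Balb/c, where the difference was -1.46 ± 0.57 (edgeR adjusted p = 0.134). That difference passed in DESeq2 (-1.55), without a filter on low counts (-1.54) and without clone 69 (-2.61), and not without clone 54 (-0.93). In NSG it was -0.07 ± 0.56 (adjusted p = 0.967) and positive without clone 69 (0.42). The host difference was 0.84 ± 0.57 in wild type (adjusted p = 0.276), passing in a fit of the 4 libraries compared (0.91). In knockout it was -0.54 ± 0.56 (adjusted p = 0.498), -1.70 and past the threshold without clone 69 in Balb/c, and positive without clone 54 in NSG (0.21) or in Balb/c (0.07). The difference of knockout effects was -1.39 ± 0.80 (adjusted p = 0.336), passing without clone 69 in Balb/c (-2.54) and at -0.62 without clone 54 in NSG. A processed pseudogene overlaps Trem1 on the opposite strand, so that its reads cannot be told apart without a stated strand setting. Tyrobp rose with the Balb/c host in knockout (1.35; wild type 0.37, not passing), and Syk, the kinase that Tyrobp recruits, rose with the Balb/c host by 1.85 and 1.55. Of the 6 tested genes of the TREM list, 2 rose in wild type and 4 in knockout (31.5% and 31.1% of all genes passed), among them Trem2, a macrophage receptor, which rose by 1.92 in knockout.

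Retnlg (ENSMUSG00000022651, chromosome 16, 48872621 to 48874496) was higher in Balb/c hosts in both genotypes. It was 39.8 CPM (parental) and 55.5 CPM (vCas9) in NSG wild type, and 63.8 CPM (clone 54) and 26.6 CPM (clone 69) in NSG knockout. It was 447 CPM (parental) and 509 CPM (vCas9) in Balb/c wild type, and 124 CPM (clone 54) and 451 CPM (clone 69) in Balb/c knockout. Every Balb/c library was above every NSG library, and clone 69 in Balb/c lay between the wild-type libraries. Retnlg rose with the Balb/c host by 3.33 ± 0.64 in wild type (edgeR adjusted p = 0.00932), a call kept with the line as a block (3.34) and lost without the NSG parental (3.10) or NSG vCas9 library (3.58). It rose by 2.67 ± 0.62 in knockout (adjusted p = 0.0151), a call lost without clone 69 in NSG (2.17), with the line as a block (2.51, which rests on the clone labels) and in a fit of the 4 libraries compared (2.68), and kept at 1.47 without clone 69 in Balb/c. The knockout difference was -0.08 ± 0.59 in NSG (adjusted p = 0.967), positive without NSG vCas9 (0.18) or clone 69 (0.42). In Balb/c it was -0.73 ± 0.58 (adjusted p = 0.414), and it passed without clone 69 (-1.94) and was -0.19 without clone 54. The difference of knockout effects was -0.66 ± 0.83 (adjusted p = 0.667), positive without clone 54 in NSG (0.11). Retnla, a resistin-like gene of alternatively activated macrophages and of other cells in type 2 responses, rose far more with the Balb/c host, by 5.51 in wild type and 7.53 in knockout.

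Padi4 (ENSMUSG00000025330, chromosome 4, 140745865 to 140774236, minus strand) had its highest value in the NSG parental library. It was 182 CPM (parental) and 115 CPM (vCas9) in NSG wild type, and 72.4 CPM (clone 54) and 117 CPM (clone 69) in NSG knockout. It was 61.2 CPM (parental) and 81.0 CPM (vCas9) in Balb/c wild type, and 22.1 CPM (clone 54) and 53.4 CPM (clone 69) in Balb/c knockout. The host groups did not overlap in either genotype, with Balb/c lower. The host difference was -1.06 ± 0.43 in wild type (edgeR adjusted p = 0.0924) and passed without clone 54 (-0.97) or clone 69 (-1.07) in Balb/c, without a filter on low counts (-0.98) and in a fit of the 4 libraries compared (-0.99). In knockout it was -1.33 ± 0.44 (adjusted p = 0.0514), and it passed with the line as a block (-1.42, which rests on the clone labels), with RLE (-1.32) or total-count scaling (-1.55), without a filter on low counts (-1.33), in DESeq2 (-1.32), in limma-voom (-1.44) and without clone 69 in Balb/c (-2.09), with -0.85 without clone 54 there. The knockout difference was -0.65 ± 0.43 in NSG (adjusted p = 0.513) and -0.92 ± 0.43 in Balb/c (adjusted p = 0.19), the latter passing without clone 69 (-1.68) and at -0.52 without clone 54. The difference of knockout effects was -0.27 ± 0.61 (adjusted p = 0.819), positive without NSG vCas9 (0.04), clone 69 in NSG (0.13) or clone 54 in Balb/c (0.12). The related deiminases Padi1 and Padi3, found mainly in epidermis, fell with the Balb/c host in knockout tumors (-4.09 and -4.61), and Padi2 did not pass. Of all genes 31.1% passed in that comparison.

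Cebpe (ENSMUSG00000052435, chromosome 14, 54710360 to 54712174, minus strand) had its highest values in Balb/c knockout tumors. Its CPM values were 1.32 (parental) and 2.40 (vCas9) in NSG wild type, and 0.963 (clone 54) and 0.497 (clone 69) in NSG knockout. They were 2.38 (parental) and 6.58 (vCas9) in Balb/c wild type, and 8.46 (clone 54) and 11.8 (clone 69) in Balb/c knockout. These correspond to between 5 and 162 counts, with the NSG knockout libraries at 9 and 5. Both Balb/c knockout libraries were above all others and both NSG knockout libraries below all others. Cebpe rose with the Balb/c host in knockout tumors by 3.79 ± 0.64 (13.9-fold by the means of CPM, edgeR adjusted p = 0.00411), and it passed in every alternative run for that comparison. In wild type the host difference was 1.29 ± 0.56 (adjusted p = 0.111), with 1.82 without the parental and 0.43 without the vCas9 library of Balb/c. The knockout difference was -1.34 ± 0.66 in NSG (adjusted p = 0.405) and 1.16 ± 0.52 in Balb/c (adjusted p = 0.174). The latter was 0.62 without Balb/c parental and 2.002 without Balb/c vCas9, and the former -0.86 without NSG vCas9. Their difference was 2.50 ± 0.84 (adjusted p = 0.152).

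Cebpe also serves eosinophil maturation, and eosinophil markers moved with the host. Of 8 eosinophil genes 7 rose with the Balb/c host in each genotype, beside 31.5% (wild type) and 31.1% (knockout) of all genes that passed. Their summed level was 10.2 to 25.3 CPM in NSG wild type, 30.7 to 38.6 CPM in NSG knockout, 316 to 404 CPM in Balb/c wild type and 371 to 639.9 CPM in Balb/c knockout. Epx was at 0 counts in all 4 NSG libraries. The part of eosinophils in the Cebpe result was not tested. Among 11 regulators of granulopoiesis, 7 rose with the Balb/c host in each genotype (31.5% and 31.1% of all genes passed), with the largest values in Gfi1b (3.90 in wild type), Myb (3.08 in wild type), a factor of immature progenitors, and Gfi1, a repressor needed for neutrophil development, which had 1 to 5 counts in the NSG libraries and 44 to 48 in those of Balb/c. Cebpa, needed for the first granulocytic commitment and also used by macrophages, rose by 2.06 in knockout. For the knockout in Balb/c 0 of the 11 passed in edgeR (2 at an unadjusted p under 0.05, 2 in DESeq2, 0 in limma-voom), beside 30.9% of all genes unadjusted and 15.0% in DESeq2. Cebpa had the largest difference of the list there (1.68).

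**Figure D2:**
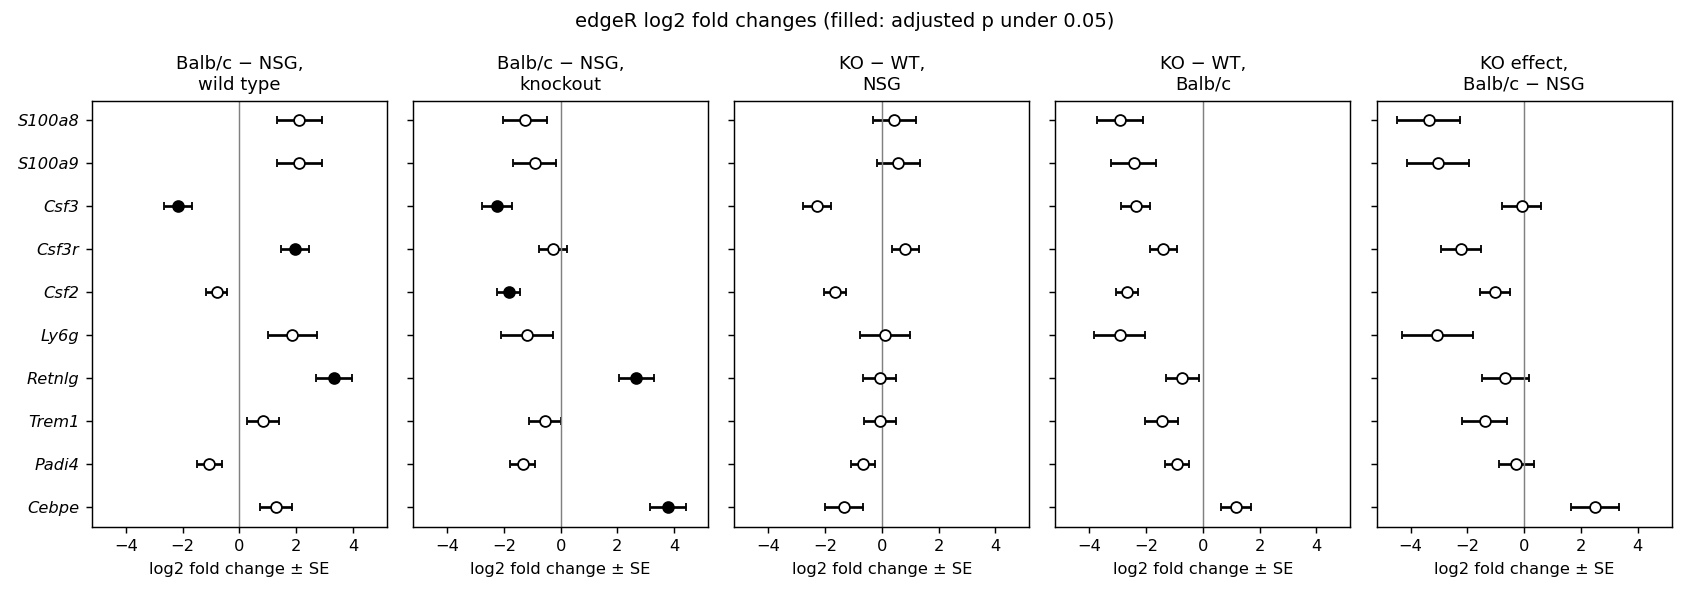
Log2 fold changes (x axis) of the 10 genes with SE in 5 comparisons from 1 edgeR fit of 8 libraries, filled points having an adjusted p under 0.05. Filled points are Csf3, Csf3r and Retnlg in the wild-type host comparison and Csf3, Csf2, Retnlg and Cebpe in the knockout host comparison, and there is none in the other 3.

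Counted over the 10 genes, 3 passed in the host comparison of wild-type tumors (Csf3r and Retnlg higher, Csf3 lower), beside 31.5% of all genes tested. The libraries did not overlap for 6 genes higher in Balb/c, beside 35.4% of all genes, and for 3 lower in Balb/c, beside 41.0%. In knockout tumors 4 of 10 passed (Retnlg and Cebpe higher, Csf3 and Csf2 lower), beside 31.1%. There 2 were higher without overlap (32.4% of all genes) and 3 lower (31.9%). The shares past the threshold are near those of all genes, while the medians of the 10 log2 fold changes were 1.57 in wild type and -1.06 in knockout, with all genes at -0.079 and 0.0222. The knockout median turned on single clones. It was -0.171 without clone 54 and -1.19 without clone 69 in NSG. It was -0.219 without clone 54 and -1.98 without clone 69 in Balb/c. With total-count scaling the median of all genes moved to -0.236 in wild type and -0.169 in knockout, and the split of calls moved with the scaling. In wild type 2344 of 4825 calls were higher with TMM, 1905 of 5220 with total counts and 2676 of 4621 with RLE, and in knockout 2403 of 4757 with TMM and 1756 of 4707 with total counts. The genes called among the 10 in wild type were the same 3 under each of these scalings. With the line as a block, 1 of the 10 passed in wild type (Retnlg) among 2073 genes in all, and 3 in knockout (Csf2, Padi4 and Cebpe) among 2878. The count in wild type moved with that of all genes when a library was left out. None of the 10 passed without NSG parental, beside 858 of 15750 genes, and 1 without NSG vCas9 (Csf3), beside 1270 of 15883. Retnlg alone passed without Balb/c parental, beside 1289 of 15801 genes, and without Balb/c vCas9, beside 1482 of 15699. There were 7 without clone 54 in Balb/c, beside 6165 of 15731 genes, and 7 without clone 69, beside 6361 of 15697. In knockout 2 passed without clone 54 in NSG (Retnlg and Cebpe), beside 3302 of 15811 genes.

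Between knockout and wild type in NSG, 0 of the 10 passed in edgeR, beside 0.0131% of all genes. At an unadjusted p under 0.05 there were 2, Csf3 and Csf2, beside 14%, the same 2 passed in DESeq2, beside 2.41%, and 0 passed in limma-voom, beside 0.00653%. Without overlap 3 were lower (25.8% of all genes), namely Csf3, Csf2 and Cebpe, and 1 was higher (26.7%), Csf3r.

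In Balb/c, 0 of the 10 passed in edgeR, beside 0.176% of all genes, with 7 at an unadjusted p under 0.05, beside 30.9%. In DESeq2 7 passed, beside 15.0%, and in limma-voom 0, beside 0.124%. The 7 were S100a8, S100a9, Csf3, Csf3r, Csf2, Ly6g and Trem1. Without overlap 8 were lower in knockout, beside 29.3% of all genes, and 1 higher (Cebpe), beside 32.9%. The sign was negative in 9 of 10, and the median of the 10 was -1.91, with all genes at 0.0578. The count turned on 1 library. Without clone 69, 9 of the 10 passed, beside 24.8% of all genes, and without clone 54 0 passed, beside 0.00636%. In such a fit the lone clone is assumed to vary like the other groups.

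The test of the difference between the 2 knockout effects passed for 0 of the 10 and for 0% of all genes in edgeR. At an unadjusted p under 0.05 there were 5 of 10 (S100a8, S100a9, Csf3r, Ly6g and Cebpe), beside 22.5%. DESeq2 called 1, Csf3r, beside 6.90%, and limma-voom 0, beside 0%. Without clone 69 in Balb/c 5 passed, beside 15.1%, and without clone 54 0 passed, beside 0.00636%. In the host comparison of knockout tumors the same 2 omissions gave 9 of 10 (beside 29.6%) and 3 of 10 (beside 29.3%). Every group enters a host comparison, a knockout comparison and the difference of knockout effects, so that the comparisons are not independent of one another.

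The clones of a group were also set beside each other. Differences were taken in log2 CPM with a prior count of 2. In Balb/c knockout 7 of the 10 differed by more than 1 on this scale between clones (15.7% of all genes). The median difference was 1.63 beside 0.386 for all genes. Without a prior count Csf3, at a ratio of 2.015 between these clones, would also lie just past 1. In NSG knockout 7 of the 10 differed by more than 1 (9.95% of all genes), with medians of 1.10 and 0.287. Between the wild-type lines the numbers were 0 of 10 in NSG (5.79%) and 1 in Balb/c (6.36%), the 1 being Cebpe. Of the 10 genes, 9 were higher in the library labelled clone 54 in NSG and in the library labelled clone 69 in Balb/c, and Padi4 was higher in that of clone 69 in both hosts. Over all genes the differences between the clones correlated at -0.353 between hosts. A swap of the clone labels in 1 host was not tested, and values per clone across hosts rest on those labels, as do the fits with the line as a block, while the group comparisons without a block do not. In Balb/c clone 69 exceeded clone 54 by 7.04-fold for S100a8, 9.88-fold for Ly6g and 3.63-fold for Retnlg.

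**Figure D3:**
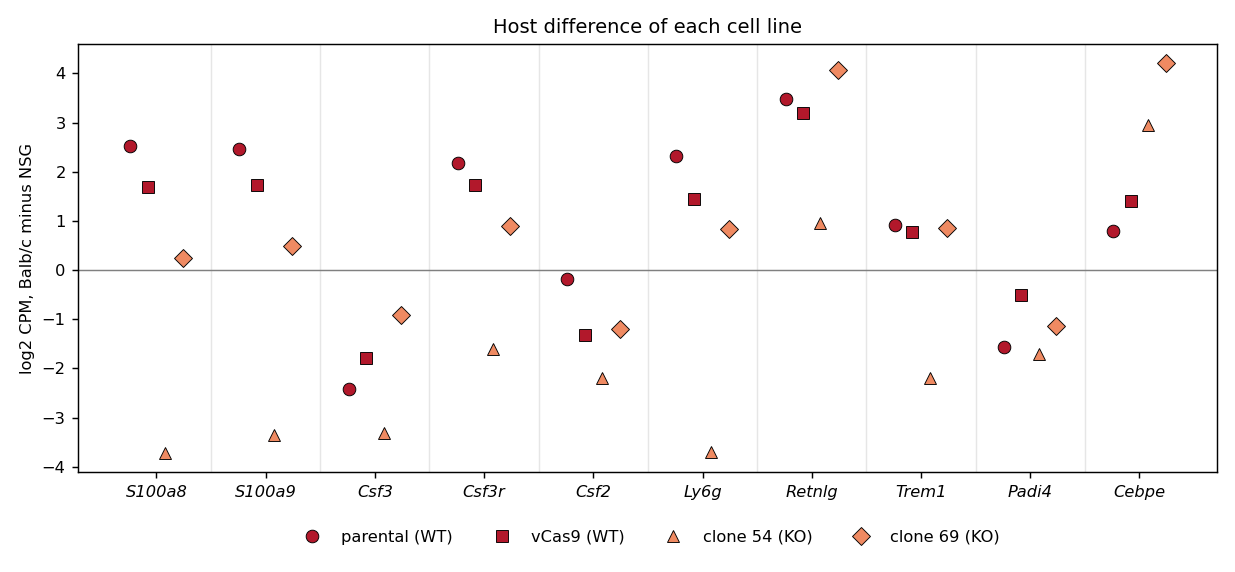
Difference of log2 CPM between Balb/c and NSG hosts (y axis) for each gene (x axis) and each of the 4 lines, 1 point per line as labelled. Clone 54 lies below 0 for S100a8, S100a9, Csf3r, Ly6g and Trem1 where the other 3 lines lie above 0, and all 4 lines lie above 0 for Retnlg and Cebpe and below 0 for Csf3, Csf2 and Padi4.

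Line by line, as labelled, the host difference of S100a8 was 2.53 in the parental line, 1.68 in vCas9, -3.72 in clone 54 and 0.25 in clone 69, on the log2 CPM scale. For Retnlg it was 3.49, 3.19, 0.96 and 4.08 in the same order, and for Cebpe 0.79, 1.40, 2.95 and 4.20. The direction was shared by all 4 lines for Retnlg, Cebpe, Csf3, Csf2 and Padi4. For the remaining 5 the line labelled clone 54 was opposite to the other 3. If the clones were crossed between hosts, S100a8 would go from 819 to 437 CPM and from 367 to 62.1 CPM, lower in Balb/c for both, and the same holds for S100a9, Csf3r, Ly6g and Trem1.

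Over the 8 libraries the genes fell into sets of like pattern, grouped after their values were seen. Pearson correlations of log2 CPM are descriptions, since the libraries share hosts, lines and depth. Among S100a8, S100a9, Csf3r, Ly6g and Trem1 the 10 pairs had r from 0.821 to 0.994, the closest being S100a8 with S100a9 (0.994) and Ly6g with S100a8 and with Trem1 (0.983 each). Among Csf3, Csf2 and Padi4 the 3 pairs had r from 0.702 to 0.918. Across the 2 sets r ran from -0.0654 to 0.634, with Csf3 and Csf3r at -0.00374. Retnlg was closest to Cebpe (0.764) and Csf3r (0.734), and Cebpe was at -0.19 with S100a8. Of 11439 genes averaging at least 5 CPM, those most like S100a8 were S100a9, Ifitm1 (0.991), Tnfrsf23 (0.99), Trim30b (0.99) and Asprv1 (0.987). Those most like Csf3 were Procr (0.977), Spry2 (0.977), Tmem120a (0.972), Usp22 (0.969) and Errfi1 (0.964).

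**Figure D4:**
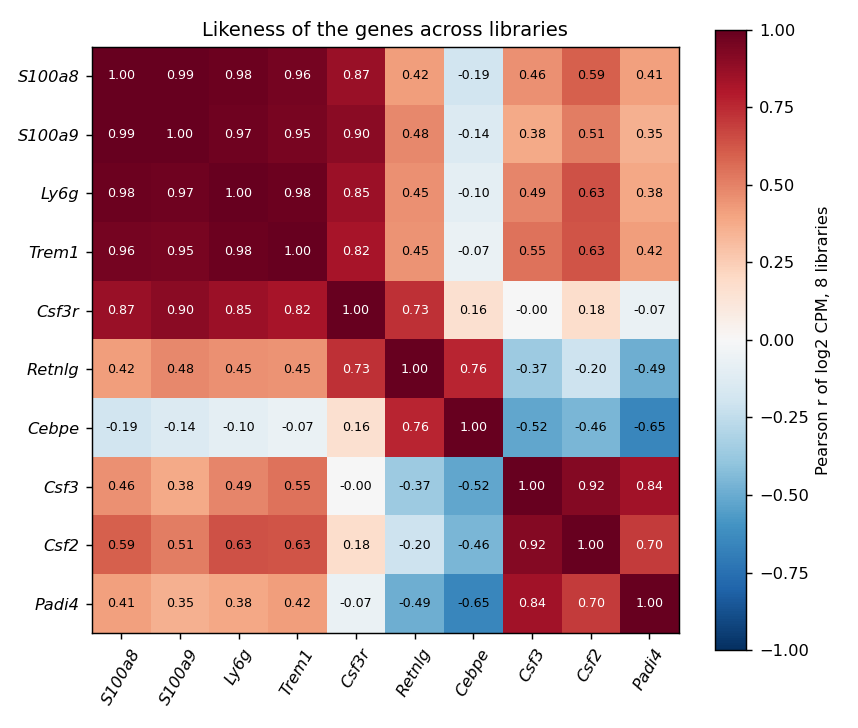
Pearson correlation of log2 CPM over 8 libraries for each pair of the 10 genes, printed in each cell and coloured from -1 (blue) to 1 (red). A block of 5 genes from S100a8 to Csf3r and a smaller one of Csf3, Csf2 and Padi4 stand out, with S100a8 and S100a9 at 0.99.

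Ratios of counts within a library were compared for pairs of these genes. The ratio of S100a9 to S100a8 counts lay between 1.66 and 2.01 in 6 libraries and was 2.36 and 2.37 in the clones grown in Balb/c. The ratio of Retnlg to S100a8 counts was 0.0724 to 0.112 in the 4 NSG libraries, 0.203 and 0.321 in Balb/c wild type, and 2.0 (clone 54) and 1.03 (clone 69) in Balb/c knockout. Trem1 to Csf3r was 2.15 and 1.94 in NSG wild type and 0.758 to 1.14 in the other 6 libraries. The proportions of these transcripts to one another thus shifted between groups.

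**Figure D5:**
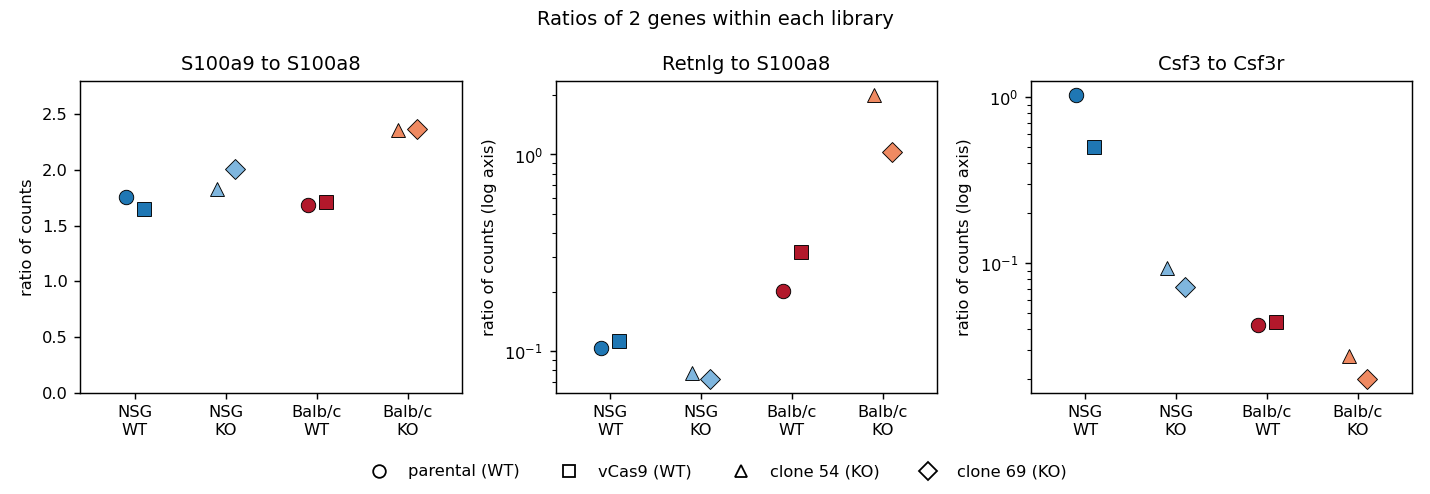
Ratio of the counts of 2 genes within each of the 8 libraries, on a linear axis for S100a9 to S100a8 and on log axes for Retnlg to S100a8 and Csf3 to Csf3r. The clones in Balb/c stand at 2.36 and 2.37 in the first panel and at 2.0 and 1.03 in the second, and NSG wild type stands at 1.03 and 0.504 in the third.

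Other genes of mature neutrophils were read from a list of 18, all tested. With the Balb/c host 6 rose and none fell in wild type (median 1.62), and 3 rose and 2 fell in knockout (median -0.0965), shares near the 31.5% and 31.1% of all genes that passed. Among those that rose in wild type were Cd300lf (3.04), an inhibitory receptor, and Acod1 (2.55), the itaconate-forming enzyme. In knockout Fpr1, a receptor for bacterial formyl peptides, fell by 2.80, Wfdc21 fell by 2.27 and the Fc receptor Fcgr4 rose by 2.50. For the knockout in Balb/c 0 passed in edgeR (10 at an unadjusted p under 0.05, all lower, with 8 in DESeq2 and 0 in limma-voom), beside 30.9% of all genes unadjusted and 15.0% in DESeq2. There 15 of 18 values were negative with a median of -1.46, the largest being Wfdc21 (-3.41), Fpr1 (-2.98) and Stfa2l1 (-2.76). In NSG 0 passed in edgeR, also at an unadjusted p under 0.05 and in DESeq2 and limma-voom, with a median of 0.176. The summed level was 13131 to 13292 CPM in Balb/c wild type, 2511 to 5812 CPM in NSG, and in Balb/c knockout 2806 CPM in clone 54 and 8914 CPM in clone 69.

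Granule protein genes belong to earlier stages of maturation. Of 12, Elane and Ctsg, of the primary granules that form in promyelocytes, were under the filter, and Mpo, of the same granules, was at most 3.99 CPM. Of the 10 tested, 7 rose and none fell with the Balb/c host in wild type (median 2.39), led by Pglyrp1 (3.73), Ngp (3.22) and Ltf (3.10), and in knockout 1 rose and 3 fell, beside 31.5% and 31.1% of all genes that passed. The knockout comparison in Balb/c gave 0 calls in edgeR (7 at an unadjusted p under 0.05, 6 in DESeq2, 0 in limma-voom), beside 30.9% of all genes unadjusted and 15.0% in DESeq2. There 9 of 10 values were negative with a median of -2.59, the largest being Ngp (-6.10), Camp (-5.24) and Mpo (-3.26). Ngp, a secondary granule protein, had 161 CPM (parental) and 163 CPM (vCas9) in Balb/c wild-type tumors and 0.317 CPM (clone 54) and 4.67 CPM (clone 69) in Balb/c knockout. For the knockout in NSG 7 of 10 values were positive (median 0.579), and 0 passed in edgeR. The summed level of the 12 was highest in NSG knockout, at 1269 to 1561 CPM. It was 1169 to 1178 CPM in Balb/c wild type, 441 to 773 CPM in NSG wild type and 441 to 676 CPM in Balb/c knockout. Genes of the respiratory burst oxidase, which macrophages also use, rose with the Balb/c host, 5 of 6 in wild type (31.5% of all genes passed) and 6 of 6 in knockout (31.1%), among them the catalytic subunit Cybb (0.89 and 2.60).

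Of 13 neutrophil chemoattractants and their receptors, 4 rose and 1 fell with the Balb/c host in wild type, and 3 rose and 1 fell in knockout, shares near the 31.5% and 31.1% of all genes that passed. The gene that fell in both was Cxcl1, a main neutrophil attractant, with -0.99 in wild type and -1.31 in knockout, and it ranged from 192 CPM (clone 69 in Balb/c) to 1378 CPM (parental in NSG). Cxcr1, a chemokine receptor of neutrophils, rose in wild type, from 1 count in each NSG library to 101 and 94 counts in Balb/c (parental, vCas9). The receptor Cxcr4, which holds neutrophils in the marrow, rose by 1.80 and 1.89. In the knockout comparisons 0 of 13 passed in edgeR in NSG (5 at an unadjusted p under 0.05, 2 in DESeq2, 0 in limma-voom) and 0 in Balb/c (6, 3 and 0 by the same measures), beside 14% and 30.9% of all genes unadjusted and 2.41% and 15.0% in DESeq2, with Cxcl1 at -1.31 and -1.64.

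Markers of other cells moved between the same groups. Macrophage genes summed to 2502 and 2786 CPM in Balb/c wild type, and to 11962 CPM (clone 54) and 4774 CPM (clone 69) in Balb/c knockout. Between these groups all 10 had positive values with a median of 1.34. None passed in edgeR (10 at an unadjusted p under 0.05, 9 in DESeq2, 0 in limma-voom), beside 30.9% of all genes unadjusted and 15.0% in DESeq2, and none was at 0. For the knockout in NSG all 10 were negative (median -0.864), and 0 passed in edgeR, DESeq2 or limma-voom. For the difference of knockout effects all 10 were positive (median 2.11). There 0 passed in edgeR and limma-voom and 9 in DESeq2, beside 6.90% of all genes in DESeq2. With the Balb/c host 8 of 10 rose in knockout (31.1% of all genes passed), while in wild type 1 rose, 2 fell and 8 of 10 values were negative with a median of -0.81 (31.5% of all genes passed). Epithelial genes, a sign of carcinoma cells, summed to 795 CPM (parental) and 1919 CPM (vCas9) in Balb/c wild type, and to 641 CPM (clone 54) and 3431 CPM (clone 69) in Balb/c knockout. Clone 54 in Balb/c, the lowest library for 8 of the 10 genes studied, thus had the highest macrophage sum and the lowest epithelial sum of the 8 libraries. Fibroblast genes summed to 17494 CPM (parental) and 25581 CPM (vCas9) in NSG wild type, 33561 CPM (clone 54) and 29304 CPM (clone 69) in NSG knockout, 12874 and 8739 CPM in Balb/c wild type, and 11339.8 and 3982 CPM in Balb/c knockout. With the Balb/c host all 8 had negative values in both genotypes, as Csf3, Csf2 and Padi4 did. Of the 8, 1 fell in wild type (median -0.763) and 7 fell in knockout (median -1.62), beside 31.5% and 31.1% of all genes that passed. Most lymphoid and dendritic genes rose with the Balb/c host. In wild type and knockout, beside 31.5% and 31.1% of all genes that passed, these were 7 and 7 of 7 T cell genes, 7 and 6 of 8 NK cell genes, 7 and 3 of 7 B cell genes, and 6 and 7 of 8 dendritic cell genes. The NK receptor gene Klra8, named after its values were seen, fell in both genotypes and was at 0 counts in all 4 Balb/c libraries. Of 8 mast cell and basophil genes 4 fell and 1 rose in wild type and 3 fell in knockout (31.5% and 31.1% of all genes passed). Monocyte genes, of which 3 of 8 rose and 1 fell with the Balb/c host in each genotype (31.5% and 31.1% of all genes passed), summed to 4778 and 5460 CPM in Balb/c wild type and to 8461 CPM (clone 54) and 5435 CPM (clone 69) in Balb/c knockout. Erythroid genes, a sign of blood, summed to 1889 and 1741 CPM in Balb/c wild type (parental, vCas9), 331 CPM (clone 54) and 1569.98 CPM (clone 69) in Balb/c knockout, 1160.1 and 1533 CPM in NSG wild type, and 3466 CPM (clone 54) and 1886 CPM (clone 69) in NSG knockout. All 6 had negative values for the knockout in Balb/c (median -0.924), where 0 passed in edgeR (1 at an unadjusted p under 0.05, 2 in DESeq2, 0 in limma-voom), and for the difference of knockout effects (median -1.93). B cell genes summed to 208 CPM (parental) and 51.2 CPM (vCas9) in Balb/c wild type, so that the parental library stood apart. In Balb/c knockout they summed to 53.3 CPM (clone 54) and 32.0 CPM (clone 69). For the knockout in Balb/c 6 of 7 B cell genes were negative (median -3.18) and 8 of 8 endothelial genes positive (median 1.37). None of these passed in edgeR or limma-voom, with 5 and 8 at an unadjusted p under 0.05 and 5 of each list in DESeq2, beside the 30.9% and 15.0% of all genes given above. The part of these cell types in the neutrophil and G-CSF gene levels was not tested.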

How the data were processed

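Counts per Ensembl gene were deposited by the authors, 1 library per file, without normalization. The submitters' processing notes name cutadapt 1.13, STAR, HTSeq 0.6.1p1 and DESeq2 with builds mm10 and hg19, and the annotation, strand setting and filters are not given in the sources used here. Symbols were found for 24942 of 25006 identifiers, and positions came from GENCODE M21 (GRCm38). Groups follow host and CD95 status in the labels. The genes and lists were chosen with earlier results of these data known. All 8 libraries entered 1 model of 4 group means in edgeR 4.0.16 (R 4.3.3), with TMM, filterByExpr, quasi-likelihood tests and Benjamini-Hochberg adjustment over 15310 genes at a threshold of 0.05. SE is the log2 fold change over the root of F, with 4 residual degrees of freedom. List genes named are up to 3 with the largest difference and a mean of at least 1 CPM, with receptor subunits, family members and known inducers. Some list genes are not reported here. Likeness used log2 CPM with a prior count of 2. Libraries pair across hosts by line name, since each line was grown in both. Deviations of paired lines correlated over genes at 0.0875 (wild type) and -0.353 (clones). Alternatives were RLE and total-count scaling, no filter, DESeq2 1.42.0, limma-voom (limma 3.58.1), only the libraries compared, the line as a block, and leaving out each library. The fit was also run on simulated counts with 200 genes changed 4-fold, and no error rate from that run is given here. The smallest level visible at 3 counts was 0.159 to 0.321 CPM, for counting error only.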

Additional observations from a re-analysis of the deposited data

How the results depend on the processing

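Of 740 refits of the 10 genes' log2 fold changes, 630 kept direction and side of the threshold, 72 passed newly, 19 no longer passed and 19 turned sign. In wild-type tumors the host comparison gave 7 of the 10 genes without the filter (4873 of 20832 in all), 5 in DESeq2 (4865 of 16036), 8 in a fit of only the libraries compared (6838 of 14632), and 1 with the cell line as a block (2073 of 15310). In knockout tumors it gave 2 (2450 of 14603) with only the libraries compared and 2878 genes with the block. The knockout comparison in NSG gave 2 genes of the 10 (133 in all) without the filter, 2 (339) in DESeq2, and 1 gene in all in limma-voom or with only the libraries compared. In Balb/c it gave 1 (94) with RLE scaling, 7 (1774) without the filter, 7 (2161) in DESeq2 and 0 genes in all with only the libraries compared. The difference of knockout effects gave 2 (674) without the filter and 1 (968) in DESeq2. The block lost the calls of Csf3 and Csf3r in wild type and of Csf3 and Retnlg in knockout, gained Padi4 in knockout, and changed no other call of the 10. It could not be fitted within a host, where each line occurs once. With the clones crossed between hosts in the replicate block, an alternative chosen after seeing the data, the host comparison in knockout gave 7 of the 10 (5436 genes) and the difference of knockout effects 3 (307 genes), so that calls lost or gained with the block in knockout rest on the clone labels.

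Leaving out 1 library gave 0 to 7 of the 10 (858 to 6361 genes) for the host in wild type, 2 to 9 (2461 to 4640) for the host in knockout, 0 to 1 genes in all for the knockout in NSG, 0 to 9 (0 to 3886) for the knockout in Balb/c and 0 to 5 (0 to 2370) for the difference. Values that turned sign ranged, for the host in knockout, from -1.18 to 0.33 for Csf3r and -1.70 to 0.21 for Trem1. For the knockout in NSG they ranged from -0.26 to 0.90 for S100a8, -0.022 to 1.003 for S100a9, -1.06 to 0.77 for Ly6g (-0.059 in limma-voom), -0.85 to 0.42 for Retnlg and -0.83 to 0.42 for Trem1. For the difference they ranged from -0.65 to 0.80 for Csf3, -1.86 to 0.11 for Retnlg and -1.02 to 0.13 for Padi4. The cause of these shifts was not tested. Depth limits Ly6g and Cebpe most, which rest on 6 and 5 counts in their lowest libraries.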
